A study of Mus musculus with 12 samples.

Results

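The forkhead (Fox) genes encode transcription factors that share the forkhead, a winged-helix DNA-binding domain, and are sorted by sequence into subfamilies named by a letter. FoxA proteins can bind closed chromatin and open it for endoderm genes, FoxC and FoxF proteins act in mesoderm, and FoxO proteins are held out of the nucleus when AKT phosphorylates them. In embryonic stem (ES) cells, Foxd3 maintains pluripotency and Foxh1 carries Smad2 and Smad3 to the targets of Nodal. The 41 Fox genes described here were chosen by name from the 17901 genes of the deposited table, as Fox followed by 1 letter, a number and at most 1 further letter, without antisense or opposite-strand transcripts. They fell into 19 subfamilies, and 39 of them passed the filter on low values (10 or more normalized counts in at least 3 libraries). Foxd4 and Foxs1 did not.

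RNA was measured by paired-end sequencing in TT2 cells, 1 line of mouse ES cells, in 4 groups of 3 libraries. The groups were double knockout cells without Rlf and Zfp292 (DKO) after 72 h in 5 µM retinoic acid (RA) with LIF withdrawn, wild-type cells (WT) after the same treatment, DKO cells in ES medium with serum replacement, serum and LIF (serum/LIF), and WT cells in that medium. Rlf and Zfp292 encode zinc finger proteins. The cells grew on gelatin, and every group carries the genome of the same line. The labels call the replicates biological and do not say whether a genotype is 1 clone or several, so p-values measure the spread between these libraries, which may be technical. The comparisons ask which Fox genes respond to RA in each genotype and which depend on Rlf and Zfp292.

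The libraries held 30869766 to 40236799 reads in genes. Rlf had at most 3 reads in a DKO library, against at least 2463 in a WT library, and Zfp292 had 0 reads in every DKO library, against at least 2849 in a WT library. WT replicate 2 after RA stood apart: rRNA made up 41.7% of the signal in its repeat table, against 4.14% to 7.28% in the other 11 libraries. Leaving it out ended 6 of the 111 calls of Fox genes and added 3, of Foxa3 and Foxr1, and each is named beside its gene. The ES cell label was checked on 10 pluripotency factors, whose summed normalized counts ran from 107699 to 122761 in the serum/LIF libraries and from 4794 to 7877 in the RA libraries. Levels are the authors' normalized counts, which are reads divided by a size factor of the library. Errors of means are SD over 3 libraries. Log2 fold changes are on the log2(normalized count + 1) scale, with the standard error of the limma fit over all 15750 tested genes. For genes low in a group this scale can understate or overstate the change. With RA in WT cells, Foxa2 had 6.44 by limma and 6.93 by edgeR, and Foxc2 had 8.01 and 7.29. The threshold for a call was 0.05 on p-values adjusted by Benjamini and Hochberg's method, which are limma's unless another tool is named. An n-fold difference is the ratio of the means of 2 groups. In bulk RNA, fewer cells of a type and less RNA per cell cannot be told apart, and this holds for every level below.

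RA changed most Fox genes in both genotypes, as it did most genes. In DKO cells 24 of the 39 tested members rose and 9 fell with RA, against 40.2% of all tested genes higher, 38.2% lower and 78.3% called. In WT cells 25 rose and 11 fell, against 41.4% of all genes higher, 39.2% lower and 80.6% called. The median log2 fold change of the members was 0.51 in DKO and 0.64 in WT cells, against 0.04 for all genes in each. In both genotypes 22 members rose and 9 fell. The 9 were Foxd3, Foxh1, Foxi3, Foxj1, Foxn2, Foxn4, Foxo1, Foxr1 and Foxr2. The share of all genes that moved alike in both genotypes was not counted. Foxb1, Foxf2 and Foxn1 passed the test for a rise in WT cells and not in DKO cells, Foxo6 for a rise in DKO cells and not in WT cells, and Foxa3 for a fall in WT cells and not in DKO cells. The groups did not overlap for 33 members in DKO cells and 34 in WT cells, against 80.3% and 81.5% of all genes. By the authors' deposited table, 24 members rose and 9 fell in DKO cells, where it calls 69.7% of all genes, and 25 rose and 11 fell in WT cells, where it calls 72.3%.

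**Figure D1:**
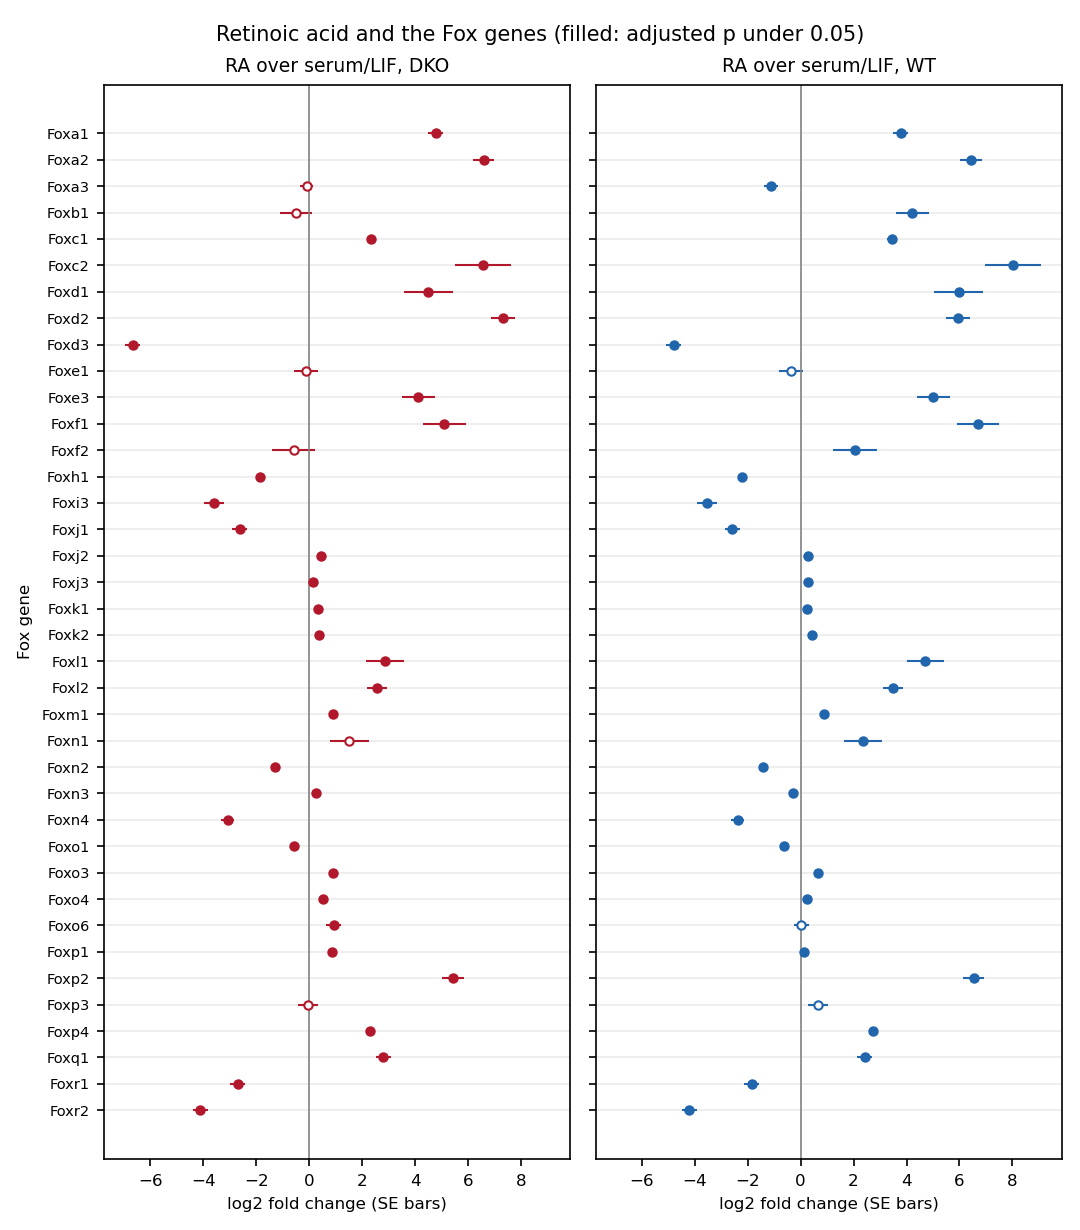
Log2 fold change of RA over serum/LIF for 38 tested Fox genes, in DKO cells (left) and WT cells (right), with SE bars from the limma fit over 12 libraries. Filled points passed an adjusted p of 0.05: of the genes drawn, 23 higher and 9 lower in DKO cells, 24 higher and 11 lower in WT cells.

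Loss of Rlf and Zfp292 changed fewer of them, at a share close to that of all genes. After RA 43.6% of the tested members were called and in serum/LIF 35.9%, against 42.7% and 33.2% of all genes. After RA, 13 members were higher in DKO than in WT cells and 4 were lower, against 22.0% of all tested genes higher and 20.7% lower. In serum/LIF 11 members were higher in DKO and 3 were lower, against 17.8% and 15.4% of all genes. The median log2 fold change of the members was 0.01 after RA, the same as for all genes, and 0.24 in serum/LIF, against −0.01 for all genes. Foxc1, Foxh1, Foxi3, Foxk1, Foxo1, Foxo3, Foxp4 and Foxq1 were higher in DKO cells in both conditions, and the share of all genes that were so was not counted. Foxp1 was higher in DKO after RA and lower in DKO in serum/LIF. The genotype effect itself differed between RA and serum/LIF for 11 members, 6 with a more positive and 5 with a more negative effect after RA, against 14.8% and 16.0% of all genes and 30.8% in either direction. The DKO and WT libraries did not overlap for 27 members after RA and 17 in serum/LIF, against 54.5% and 43.9% of all genes. The authors' deposited table lists 15 members higher and 5 lower in DKO cells after RA, beside 40.2% of all genes called, and 13 higher and 3 lower in serum/LIF, beside 31.2%.

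**Figure D2:**
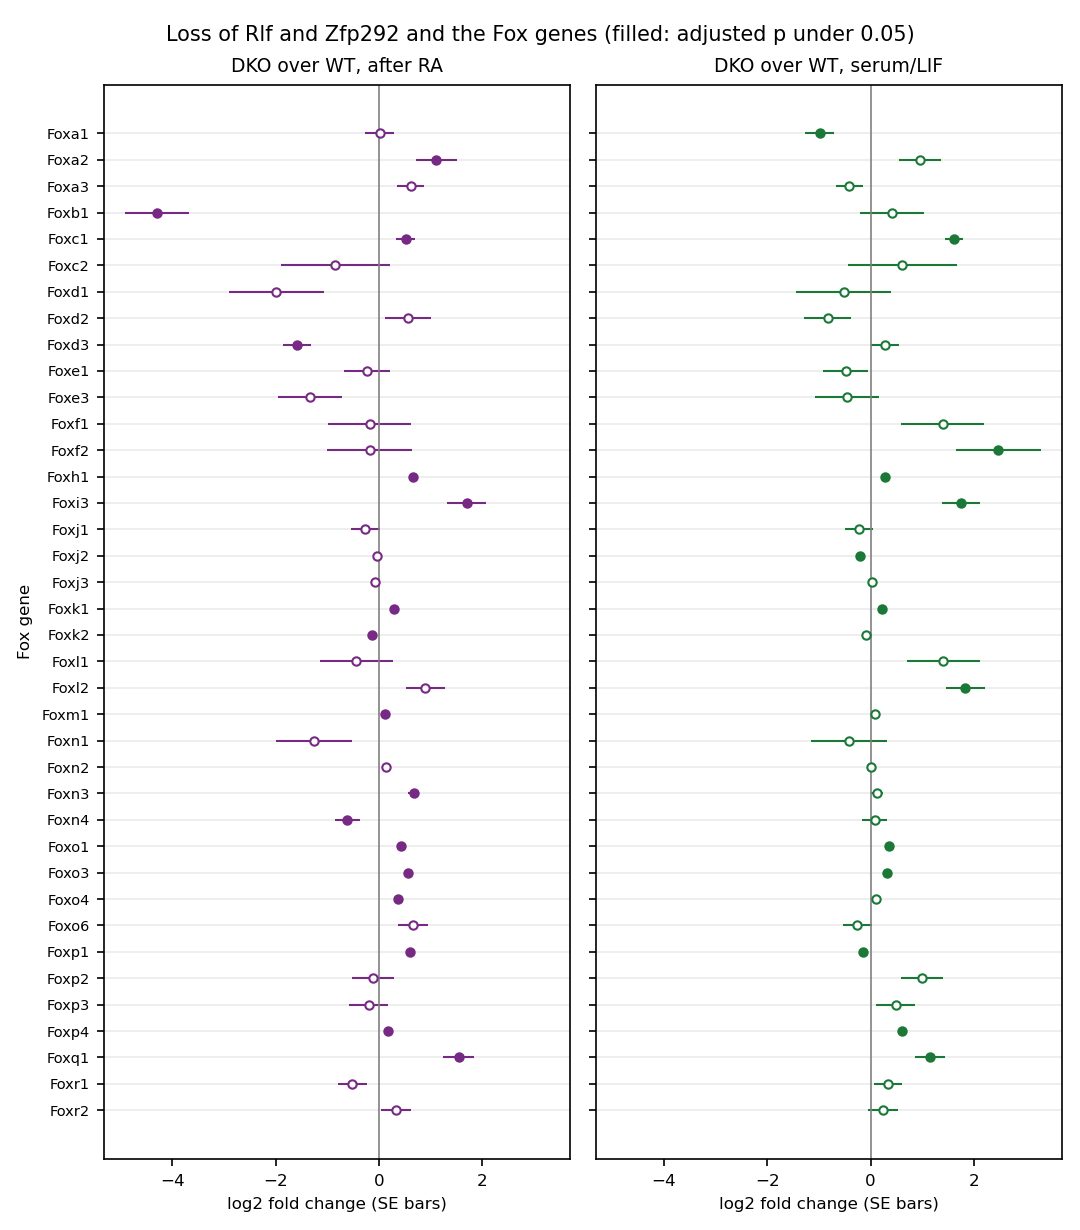
Log2 fold change of DKO over WT for 38 tested Fox genes, after RA (left) and in serum/LIF (right), with SE bars from the limma fit over 12 libraries. Filled points passed an adjusted p of 0.05: of the genes drawn, 13 higher and 4 lower after RA, with Foxb1 the farthest to the left, and 10 higher and 3 lower in serum/LIF.

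The summed normalized counts of the 41 members were 45478 ± 444 in DKO cells after RA and 39998 ± 1239 in WT cells after RA, and 30875 ± 216 in DKO cells and 28789 ± 257 in WT cells in serum/LIF. A mean of 100 or more was reached by 22 members in each genotype after RA and by 19 in each in serum/LIF. Levels per kilobase used the longest GENCODE transcript linked to the listed RefSeq transcript, which 40 members have (Foxo3 does not). Among these 40, Foxp4 had the highest level per kb after RA, at 2640 normalized counts in DKO and 2351 in WT cells. Foxh1 was highest per kb in serum/LIF, at 2023 in DKO and 1672 in WT cells. The next after RA were Foxm1 and Foxk2, at 1197 and 1130 per kb in DKO and 1100.2 and 1244 in WT cells. Next in serum/LIF were Foxk2, at 875 in DKO and 930 in WT cells, and Foxn2, at 641 in each genotype.

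**Figure D3:**
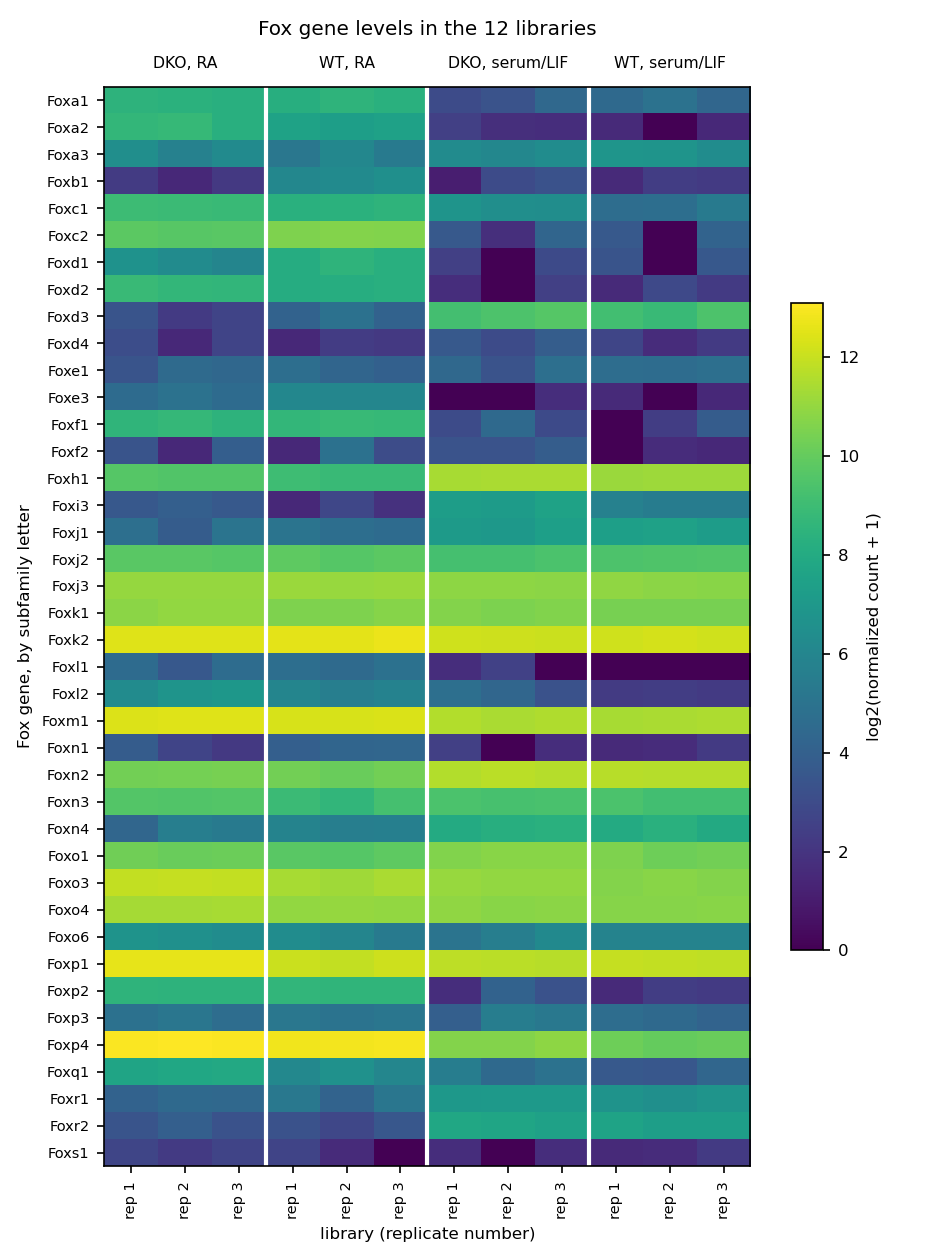
Log2(normalized count + 1) of 40 Fox genes (rows) in the 12 libraries (columns), in the order DKO RA, WT RA, DKO serum/LIF and WT serum/LIF with 3 replicates each. Foxp4, Foxk2 and Foxm1 are bright in every library after RA, while Foxa2, Foxc2, Foxd1, Foxd2, Foxf1 and Foxp2 are dark in serum/LIF and lit after RA, and Foxd3, Foxi3, Foxj1, Foxr1 and Foxr2 are the reverse.

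Promoter sequence was compared because many members moved together with RA. RefSeq promoter sequences (build GRCm38.p6, the mm10 coordinates of the files) were matched for 24 of the 41 members. In the 250 bases before the start, these 24 held a median of 20 CG dinucleotides, against 15 in the 12065 tested genes with a sequence (quartiles 9 to 22). The 14 with a sequence that rose with RA in WT cells had a median of 21.5 and the 8 that fell had 17.5. Among the members the range was wide: Foxk2 held 48, Foxr2 3, Foxn3 5 and Foxe3 6. The upstream sequences of 4 members are shown, Foxa1 and Foxc1, which rose with RA, and Foxd3 and Foxi3, which fell, each 5′ to 3′ on the strand of the gene with CG in capitals. They lie at chr12:57546112-57546361 (minus strand), chr13:31806396-31806645 (plus), chr4:99656049-99656298 (plus) and chr6:70956356-70956605 (plus) in mm10.
Foxa1: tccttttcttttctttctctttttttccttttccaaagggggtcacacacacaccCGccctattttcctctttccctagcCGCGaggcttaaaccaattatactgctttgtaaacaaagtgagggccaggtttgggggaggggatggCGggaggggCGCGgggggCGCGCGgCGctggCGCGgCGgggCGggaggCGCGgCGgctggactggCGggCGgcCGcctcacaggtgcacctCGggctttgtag
Foxc1: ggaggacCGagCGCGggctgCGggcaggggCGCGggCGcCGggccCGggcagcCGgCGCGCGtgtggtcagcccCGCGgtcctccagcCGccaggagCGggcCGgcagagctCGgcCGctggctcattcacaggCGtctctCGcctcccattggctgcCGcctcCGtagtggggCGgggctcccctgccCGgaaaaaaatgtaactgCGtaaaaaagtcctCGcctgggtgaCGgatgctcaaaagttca
Foxd3: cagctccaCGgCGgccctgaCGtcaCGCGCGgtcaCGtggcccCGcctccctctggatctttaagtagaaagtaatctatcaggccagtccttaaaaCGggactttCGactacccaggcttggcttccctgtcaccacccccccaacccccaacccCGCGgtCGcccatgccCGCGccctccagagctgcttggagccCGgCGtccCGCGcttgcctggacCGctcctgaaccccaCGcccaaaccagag
Foxi3: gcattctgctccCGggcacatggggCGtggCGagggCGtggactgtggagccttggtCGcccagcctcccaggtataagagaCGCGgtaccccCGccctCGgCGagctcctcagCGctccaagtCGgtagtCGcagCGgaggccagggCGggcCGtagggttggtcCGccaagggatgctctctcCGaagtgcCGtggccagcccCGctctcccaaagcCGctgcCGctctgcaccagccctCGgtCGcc
Foxa1 holds 21 CG in this window, Foxc1 29, Foxd3 21 and Foxi3 24. The sequence after the start matched the linked GENCODE transcript for Foxd3 and Foxi3, but not for Foxa1 and Foxc1. The starts of Foxa1 and Foxc1 therefore rest on the listed position of the gene alone. Foxi3 and Foxd3 held the most of the 8 members that fell, of which the other 6 held 3 to 20. The forkhead motif TGTTTAC, searched on both strands, was in 1 of the 24 windows, that of Foxa1, where it starts 141 bases before the gene, against 2.04% of all genes. AGGTCA, the core hexamer bound by retinoic acid receptors and searched in the same way, was in 2 of the 24, Foxe3 and Foxk2, against 10.5% of all genes. The motifs share no overlap in Foxa1, since AGGTCA is not in its window, and a match is a description of letters only.

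The FoxA genes, whose products are pioneer factors of the endoderm, were close to silent (Foxa2) or low (Foxa1) in serum/LIF and rose with RA. Foxa1 (chr12:57540628-57546111, minus strand) had 353, 325 and 311 normalized counts in DKO libraries and 299.9, 369 and 313 in WT libraries after RA. In serum/LIF, Foxa1 had 6.88, 9.39 and 20.3 normalized counts in DKO libraries and 21.0, 30.1 and 18.7 in WT libraries. The RA libraries of both genotypes overlapped with each other and lay far above all serum/LIF libraries. Foxa1 rose with RA 27.0-fold in DKO cells (log2 fold change 4.78 ± 0.28, adjusted p = 9.81e-14) and 14.1-fold in WT cells (log2 fold change 3.78 ± 0.28, adjusted p = 7.95e-12). In serum/LIF it was called lower in DKO (log2 fold change −0.98 ± 0.28, adjusted p = 0.00861), but the libraries overlapped, and the call was lost without DKO replicate 1 (adjusted p = 0.0670), without WT replicate 2 (0.0540) and with only the 6 serum/LIF libraries (0.114). Foxa2 (chr2:148042877-148045948, minus strand), which also marks the floor plate and the node, had 409.6, 437 and 302 normalized counts in DKO libraries and 186, 161 and 179 in WT libraries after RA. In serum/LIF, Foxa2 had 4.59, 2.35 and 2.25 normalized counts in DKO libraries and 1.91, 0 and 1.87 in WT libraries, a total of 8 reads in DKO and 4 in WT libraries. After RA the DKO libraries all lay above the WT libraries, 2.19-fold in the mean (log2 fold change 1.11 ± 0.40, adjusted p = 0.0299). That call was lost without any 1 of DKO replicates 1 and 2 and WT replicates 1, 2 and 3 after RA, with adjusted p = 0.0681 to 0.120, and with a pseudocount of 0.5 (0.0765). With only the 6 RA libraries in the fit it held, at adjusted p = 3.14e-07. Foxa2 rose with RA in both genotypes (log2 fold change 6.59 ± 0.40, adjusted p = 2.27e-13 in DKO and 6.44 ± 0.40, adjusted p = 3.04e-13 in WT).

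Foxa3, the third FoxA gene, had 87.2, 53.3 and 75.2 normalized counts in DKO libraries and 35.1, 66.2 and 41.3 in WT libraries after RA. In serum/LIF, Foxa3 had 80.3, 65.7 and 81.1 normalized counts in DKO libraries and 113, 109.6 and 82.3 in WT libraries. It did not rise like the other FoxA genes, but fell with RA in WT cells (log2 fold change −1.12 ± 0.26, adjusted p = 3.53e-04) and did not pass in DKO cells (log2 fold change −0.10 ± 0.26, adjusted p = 0.741). The genotype effect differed between conditions (difference of log2 fold changes 1.02 ± 0.36, adjusted p = 0.0347), a call lost on leaving out any 1 of DKO replicate 2 and WT replicates 1 and 2 in serum/LIF, and DKO replicates 1 and 3 and WT replicates 1 and 3 after RA (adjusted p = 0.0647 to 0.101). After RA the genotypes did not pass for Foxa3 (log2 fold change 0.61 ± 0.26, adjusted p = 0.0586), and without WT replicate 2 after RA it was called higher in DKO (log2 fold change 0.87, adjusted p = 0.0103). Among 12 tested endoderm genes listed beside FoxA, 10 rose and 2 fell with RA in DKO cells, and 10 rose and 1 fell in WT cells, with medians of 2.93 and 2.37 on the log2 scale. Of all tested genes, 40.2% rose and 38.2% fell in DKO cells, and 41.4% and 39.2% in WT cells. Gata6, an endoderm regulator, rose 26.6-fold in DKO and 38.9-fold in WT cells. DKO cells had 3 of the 12 higher and 2 lower after RA, against 22.0% and 20.7% of all genes. Among the called endoderm genes were Prdm1, higher 3.21-fold (log2 fold change 1.68 ± 0.11, adjusted p = 1.69e-11), and the chemokine receptor gene Cxcr4, lower 3.71-fold (log2 fold change −1.84 ± 0.21, adjusted p = 1.76e-07). Of 9 tested floor plate and ventral neural tube genes, 5 were higher in DKO cells after RA and 4 did not pass, against 22.0% of all genes higher. The median log2 fold change of the 9 was 0.59. The higher ones include the Hedgehog effector Gli1, at 401 ± 43.3 in DKO and 109 ± 30.3 in WT cells, and the Hedgehog receptor gene Ptch1, higher 1.51-fold (log2 fold change 0.60 ± 0.06, adjusted p = 6.69e-09).

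Foxb1, which marks the caudal neural tube and the hypothalamus, showed the largest genotype difference of any called member. Foxb1 (chr9:69757710-69760940) had 3.79, 1.84 and 3.58 normalized counts in DKO libraries and 65.7, 77.3 and 89.7 in WT libraries after RA. In serum/LIF, Foxb1 had 1.15, 7.04 and 9.01 normalized counts in DKO libraries and 1.91, 4.30 and 3.74 in WT libraries. WT cells after RA stood alone, and DKO cells after RA were at the level of the serum/LIF libraries. Foxb1 was 25.3-fold lower in DKO than in WT cells after RA (log2 fold change −4.30 ± 0.61, adjusted p = 3.93e-06), and this held under all 22 alternatives. It rose 23.4-fold with RA in WT cells (log2 fold change 4.22 ± 0.61, adjusted p = 9.86e-07) and did not pass in DKO cells (log2 fold change −0.49 ± 0.61, adjusted p = 0.469). The difference of these effects was called (difference of log2 fold changes −4.71 ± 0.87, adjusted p = 1.85e-04).

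The FoxC genes, regulators of paraxial and vascular mesoderm, both rose with RA and differed from each other in genotype. Foxc1 (chr13:31806646-31810635) had 498, 479 and 469 normalized counts in DKO libraries and 316, 335 and 362 in WT libraries after RA. In serum/LIF, Foxc1 had 110.1, 89.2 and 83.4 normalized counts in DKO libraries and 24.8, 25.8 and 41.1 in WT libraries. In each condition the 3 DKO libraries lay above the 3 WT libraries. Foxc1 was 3.08-fold higher in DKO in serum/LIF (log2 fold change 1.62 ± 0.18, adjusted p = 1.20e-07) and 1.43-fold higher after RA (log2 fold change 0.51 ± 0.18, adjusted p = 0.0229). The call after RA was lost without any 1 of DKO replicates 1, 2 and 3 and WT replicates 1 and 2 after RA (adjusted p = 0.0534 to 0.0831). The effect was smaller after RA (difference of log2 fold changes −1.11 ± 0.25, adjusted p = 0.00159), and Foxc1 rose 5.12-fold with RA in DKO and 11.05-fold in WT cells. Foxc2 (chr8:121116171-121118895) had 906, 838 and 857 normalized counts in DKO libraries and 1507, 1629 and 1563 in WT libraries after RA. In serum/LIF, Foxc2 had 11.5, 2.35 and 18.0 normalized counts in DKO libraries and 11.5, 0 and 16.8 in WT libraries. After RA every DKO library lay below every WT library, by 1.81-fold in the mean. The fit over 12 libraries did not call this (log2 fold change −0.85 ± 1.06, adjusted p = 0.560), where the serum/LIF libraries held 28 reads in DKO and 30 in WT in total and entered the same estimate of spread. With only the 6 RA libraries the SE was 0.06 and the difference was called at adjusted p = 5.74e-11, and by edgeR at 8.22e-07, while DESeq2 gave 0.343. Foxc2 rose with RA in both genotypes (log2 fold change 6.55 ± 1.06, adjusted p = 3.92e-04 in DKO and 8.01 ± 1.06, adjusted p = 9.35e-05 in WT).

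**Figure D4:**
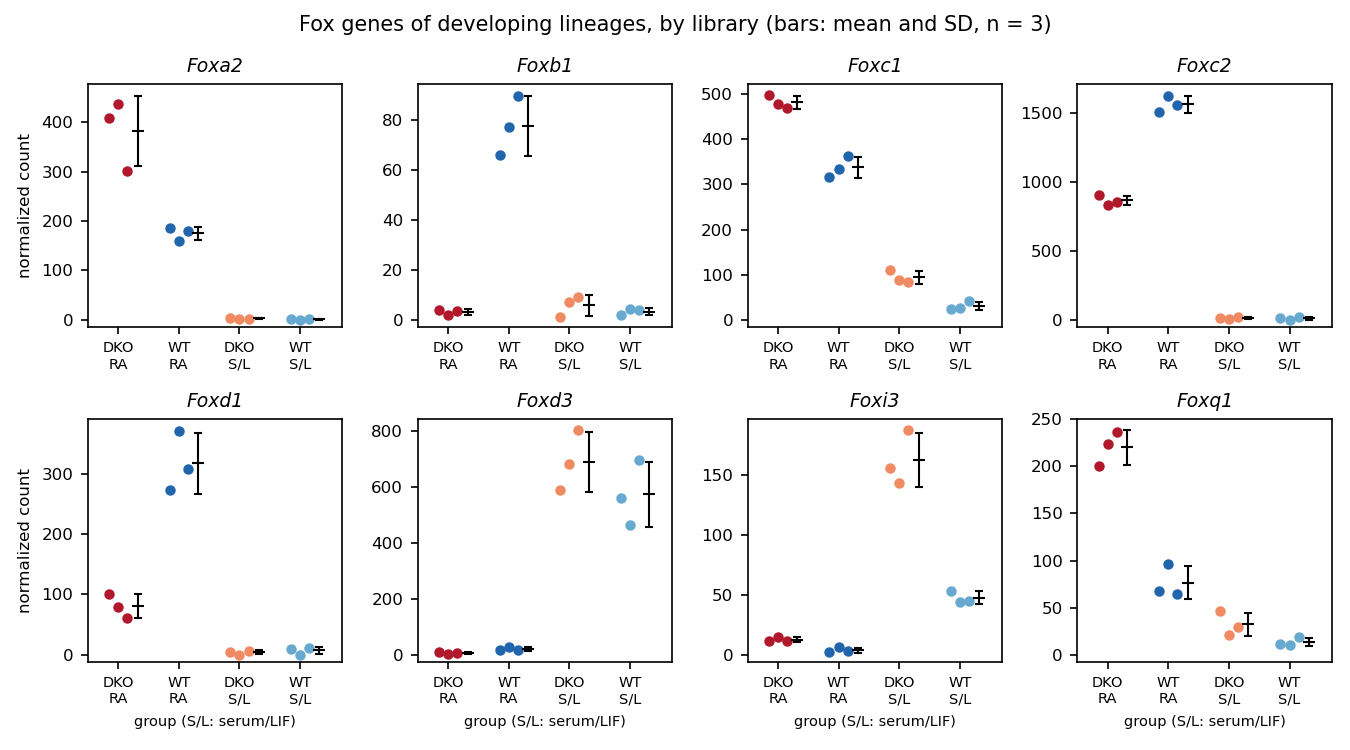
Normalized counts of 8 Fox genes in each library (points) with the group mean and SD (black, n = 3), for DKO and WT cells after RA and in serum/LIF (S/L), each on its own linear axis. After RA, DKO libraries lie above WT libraries for Foxa2, Foxc1, Foxi3 and Foxq1 and below them for Foxb1, Foxc2, Foxd1 and Foxd3, while in serum/LIF the Foxi3 level in DKO is 3.41 times that in WT.

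The FoxD genes split into 2 silent members that RA induced and 1 ES cell gene that RA reduced. Foxd1, known from kidney stroma and retina, had 100.5, 79.0 and 60.9 normalized counts in DKO libraries and 272, 371 and 307 in WT libraries after RA. In serum/LIF, Foxd1 had 4.59, 0 and 6.76 normalized counts in DKO libraries and 9.55, 0 and 11.2 in WT libraries. After RA every DKO library lay below every WT library, by 3.95-fold in the mean. This did not pass over 12 libraries (log2 fold change −1.99 ± 0.92, adjusted p = 0.106), but passed with only the 6 RA libraries (adjusted p = 2.92e-09), by edgeR (5.83e-07) and by DESeq2 (0.00368). It also passed with a pseudocount of 5 (1.30e-04), with a block for the replicate number (0.0267), without DKO replicate 2 in serum/LIF (0.0483) and without WT replicate 2 in serum/LIF (0.00521). Foxd2, expressed in cranial and kidney mesenchyme, had 464, 406 and 399 normalized counts in DKO libraries and 271, 282 and 309.5 in WT libraries after RA. In serum/LIF, Foxd2 had 2.29, 0 and 4.51 normalized counts in DKO libraries and 1.91, 6.45 and 3.74 in WT libraries. After RA its DKO libraries lay above the WT libraries, opposite to Foxd1, with log2 fold change 0.55 ± 0.45, adjusted p = 0.342 over 12 libraries, and adjusted p = 1.17e-04 over the 6 RA libraries, 0.00264 by edgeR and 4.72e-04 by DESeq2. RA raised Foxd1 (log2 fold change 4.50 ± 0.92, adjusted p = 7.14e-04 in DKO and 5.96 ± 0.92, adjusted p = 6.72e-05 in WT) and Foxd2 (log2 fold change 7.33 ± 0.45, adjusted p = 3.71e-13 in DKO and 5.94 ± 0.45, adjusted p = 1.69e-11 in WT).

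Foxd3 (chr4:99656299-99658671), which maintains pluripotency and later specifies neural crest, had 9.48, 3.67 and 5.37 normalized counts in DKO libraries and 16.2, 28.1 and 16.1 in WT libraries after RA. In serum/LIF, Foxd3 had 588, 684 and 803 normalized counts in DKO libraries and 562, 465 and 697 in WT libraries. Every RA library lay far below every serum/LIF library. Foxd3 fell with RA more in DKO cells, at 112-fold (log2 fold change −6.66 ± 0.27, adjusted p = 6.08e-17), than in WT cells, at 28.5-fold (log2 fold change −4.79 ± 0.27, adjusted p = 3.25e-14). DKO cells after RA held 3.26-fold less than WT cells (log2 fold change −1.59 ± 0.27, adjusted p = 3.72e-05), while the serum/LIF libraries of the genotypes overlapped (log2 fold change 0.27 ± 0.27, adjusted p = 0.470). The genotype effect differed between conditions (difference of log2 fold changes −1.87 ± 0.38, adjusted p = 5.51e-04). The pluripotency factors listed beside it moved the other way: 9 of 10 tested were higher in DKO cells after RA and 1 did not pass, with a median log2 fold change of 1.28 and the sum of the list at 7349 to 7877 in DKO and 4794 to 4943 in WT libraries. Of all genes 22.0% were higher. Pou5f1 (Oct4) was 2.88-fold higher (log2 fold change 1.52 ± 0.05, adjusted p = 2.41e-17), Nanog 2.66-fold (log2 fold change 1.41 ± 0.07, adjusted p = 3.15e-13) and Utf1 3.10-fold (log2 fold change 1.62 ± 0.07, adjusted p = 7.45e-15). In serum/LIF 1 of the 10 was higher in DKO and 4 were lower, against 17.8% and 15.4% of all genes. Of 15 neural crest genes, 3 were higher and 4 lower in DKO after RA (median log2 fold change −0.05), and 5 higher and 1 lower in serum/LIF (median 0.44). The shares of all genes were 22.0% higher and 20.7% lower after RA, and 17.8% and 15.4% in serum/LIF. Pax7 was 9.64-fold lower in DKO after RA (log2 fold change −3.19 ± 0.39, adjusted p = 3.86e-07) and Ets1 1.83-fold higher (log2 fold change 0.87 ± 0.08, adjusted p = 6.81e-09). Sox9 rose with RA 32.1-fold in DKO and 119-fold in WT cells.

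FoxF and FoxL genes act in the mesenchyme of the gut and lateral plate, and Foxl2 in the ovary. Foxf1 (chr8:121084386-121088154) had 374, 419.7 and 353 normalized counts in DKO libraries and 403, 458 and 444 in WT libraries after RA. In serum/LIF, Foxf1 had 6.88, 21.1 and 6.76 normalized counts in DKO libraries and 0, 4.30 and 13.1 in WT libraries. Foxf1 rose with RA in both genotypes (log2 fold change 5.11 ± 0.80, adjusted p = 1.65e-04 in DKO and 6.69 ± 0.80, adjusted p = 1.84e-05 in WT), and the genotypes overlapped in each condition. On chromosome 8 it lies 28.0 kb from Foxc2, which is 8.79 kb from Foxl1, and all 3 rose with RA in both genotypes. Of all tested genes, 40.2% rose in DKO cells and 41.4% in WT cells. Foxl1 had 0 reads in the WT serum/LIF libraries, and with 3 reads over the group in place of 0 it was at least 25.7-fold higher in WT after RA. Its means were 19.3 ± 7.21 in DKO and 25.3 ± 3.32 in WT cells after RA. Foxl2 had 79.6, 110.2 and 121 normalized counts in DKO libraries and 61.2, 48.2 and 54.7 in WT libraries after RA. In serum/LIF, Foxl2 had 26.4, 18.8 and 9.01 normalized counts in DKO libraries and 3.82, 4.30 and 3.74 in WT libraries. DKO libraries lay above WT libraries in both conditions, called in serum/LIF (log2 fold change 1.83 ± 0.38, adjusted p = 5.51e-04) and short of the threshold after RA (log2 fold change 0.89 ± 0.38, adjusted p = 0.0608). The value after RA passed with only the 6 RA libraries (adjusted p = 0.00185), by edgeR (0.0121) and by DESeq2 (0.00749), with a pseudocount of 5 (0.0202), and without DKO replicate 1 (0.0496) or 3 (0.0321) in serum/LIF. Foxl2 rose with RA 5.74-fold in DKO and 13.8-fold in WT cells.

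Foxq1, known from hair and stomach epithelium, rose with RA and was higher in DKO cells in both conditions. Foxq1 (chr13:31558170-31560976) had 200.04, 224 and 236 normalized counts in DKO libraries and 67.6, 96.3 and 64.6 in WT libraries after RA. In serum/LIF, Foxq1 had 45.9, 21.1 and 29.3 normalized counts in DKO libraries and 11.5, 10.7 and 18.7 in WT libraries. DKO libraries lay above WT libraries in both conditions, 2.89-fold after RA (log2 fold change 1.54 ± 0.30, adjusted p = 1.76e-04) and 2.35-fold in serum/LIF (log2 fold change 1.15 ± 0.30, adjusted p = 0.00405). Foxq1 rose with RA 6.86-fold in DKO and 5.59-fold in WT cells. On chromosome 13, Foxq1, Foxf2 and Foxc1 lie in a row with gaps of 64.8 and 175 kb, and all 3 were called higher in DKO in serum/LIF, against 17.8% of all genes. The Foxf2 call rests on 28 reads in DKO and 4 in WT libraries and was lost without DKO replicate 3 or WT replicate 1. After RA, Foxf2 did not pass between genotypes (log2 fold change −0.18 ± 0.83, adjusted p = 0.881).

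Fibroblast and mesenchyme genes were listed beside these members. Of 11 tested fibroblast and mesenchyme genes, 7 were higher in DKO after RA and 4 did not pass, and 10 were higher in serum/LIF and 1 did not pass, with median log2 fold changes of 0.34 and 1.45. For this list and the mesoderm and forebrain genes below, 22.0% of all genes were higher and 20.7% lower after RA. In serum/LIF these shares were 17.8% and 15.4%. The 12 listed genes summed to 112105 to 113808 normalized counts in DKO and 87067 to 90143 in WT libraries after RA, and to 74221 to 80140 in DKO and 47217 to 48876 in WT libraries in serum/LIF, with no gene at 0 reads. Acta2 was 4.26-fold and Tagln 3.90-fold higher in DKO in serum/LIF (log2 fold change 2.09 ± 0.04, adjusted p = 1.05e-20, and log2 fold change 1.97 ± 0.04, adjusted p = 3.05e-20). The part of these genes, or of cells that express them, in the Fox results was not tested. Of 14 tested mesoderm genes listed beside FoxC and FoxF, 2 were higher and 4 lower in DKO after RA, and 3 higher and 3 lower in serum/LIF, with medians of −0.30 and −0.06. Kdr, a receptor of vascular progenitors, was 4.51-fold higher in DKO in serum/LIF (log2 fold change 2.21 ± 0.24, adjusted p = 8.97e-08). Tcf15 went the other way there, 2.09-fold lower in DKO (log2 fold change −1.05 ± 0.19, adjusted p = 1.02e-04). After RA, Meox1, of the somites, was 2.24-fold lower in DKO than in WT cells (log2 fold change −1.16 ± 0.29, adjusted p = 0.00300). Pdgfra rose with RA 14.8-fold in DKO and 24.5-fold in WT cells. Of 7 tested forebrain genes, 2 were higher in DKO after RA and 5 did not pass, with a median log2 fold change of 0.34.

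Foxh1, the forkhead partner of Smad2 and Smad3 in Nodal signalling, was higher in DKO cells in both conditions. Foxh1 (chr15:76668224-76669948) had 794, 753 and 744 normalized counts in DKO libraries and 522, 463 and 476 in WT libraries after RA. In serum/LIF, Foxh1 had 2666, 2793 and 2823 normalized counts in DKO libraries and 2213, 2335 and 2299.5 in WT libraries. DKO libraries lay above WT libraries in each condition, and all RA libraries lay below all serum/LIF libraries. Foxh1 was 1.57-fold higher in DKO after RA (log2 fold change 0.65 ± 0.06, adjusted p = 6.47e-09) and 1.21-fold in serum/LIF (log2 fold change 0.27 ± 0.06, adjusted p = 0.00111), and the effect was larger after RA (difference of log2 fold changes 0.37 ± 0.09, adjusted p = 0.00176). It fell 3.61-fold with RA in DKO cells (log2 fold change −1.85 ± 0.06, adjusted p = 1.20e-18) and 4.69-fold in WT cells (log2 fold change −2.23 ± 0.06, adjusted p = 2.21e-20). Of 15 Nodal pathway genes, 7 were higher and 1 lower in DKO after RA, and 8 higher and 1 lower in serum/LIF, with median log2 fold changes of 0.13 and 0.20. The shares of all genes were 22.0% higher and 20.7% lower after RA, and 17.8% and 15.4% in serum/LIF. Nodal itself had 864 ± 33.4 in DKO and 281 ± 42.3 in WT cells after RA (log2 fold change 1.63 ± 0.09, adjusted p = 2.60e-13). The feedback antagonists Lefty1 and Lefty2 were 2.28-fold and 3.30-fold higher in DKO after RA (log2 fold change 1.19 ± 0.15, adjusted p = 8.28e-06, and log2 fold change 1.72 ± 0.11, adjusted p = 6.26e-12). In serum/LIF, Nodal was 1.75-fold higher (log2 fold change 0.81 ± 0.09, adjusted p = 6.02e-08) and Smad3 1.62-fold (log2 fold change 0.70 ± 0.06, adjusted p = 8.91e-10). The part of the higher pluripotency factors in the Foxh1 level after RA was not tested.

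Foxi3, a factor of the ectoderm that forms ear, teeth and hair, was expressed mainly in serum/LIF and was higher in DKO cells. Foxi3 (chr6:70956606-70961066) had 11.4, 14.7 and 11.6 normalized counts in DKO libraries and 1.80, 6.02 and 2.69 in WT libraries after RA. In serum/LIF, Foxi3 had 156, 143 and 187 normalized counts in DKO libraries and 53.5, 44.1 and 44.9 in WT libraries. DKO and WT libraries did not overlap in either condition. Foxi3 was 3.41-fold higher in DKO in serum/LIF (log2 fold change 1.75 ± 0.37, adjusted p = 7.51e-04) and 3.59-fold higher after RA (log2 fold change 1.69 ± 0.37, adjusted p = 7.17e-04). It fell with RA 12.9-fold in DKO (log2 fold change −3.59 ± 0.37, adjusted p = 4.55e-09) and 13.5-fold in WT cells (log2 fold change −3.53 ± 0.37, adjusted p = 5.30e-09).

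Foxj1, the regulator of motile cilia, fell with RA. Foxj1 had 26.5, 12.9 and 32.2 normalized counts in DKO libraries and 32.4, 26.1 and 23.3 in WT libraries after RA. In serum/LIF, Foxj1 had 138, 126 and 168 normalized counts in DKO libraries and 169, 182 and 151 in WT libraries. The genotypes overlapped in both conditions, and Foxj1 fell 6.02-fold in DKO (log2 fold change −2.62 ± 0.28, adjusted p = 6.79e-09) and 6.13-fold in WT cells (log2 fold change −2.58 ± 0.28, adjusted p = 7.96e-09). Of 16 tested cilia genes, 4 rose and 8 fell with RA in DKO cells, against 40.2% and 38.2% of all genes. In WT cells 4 rose and 7 fell, against 41.4% and 39.2%. The median log2 fold change of these 16 was −0.82 in DKO and −0.61 in WT cells. Rsph1, of the axoneme radial spoke, fell 6.80-fold in DKO cells. Between genotypes 1 of the 16 was higher and 4 were lower in DKO after RA, against 22.0% and 20.7% of all genes. In serum/LIF 3 were higher and 1 lower, against 17.8% and 15.4%. Foxj2, a broadly expressed paralogue, had 874, 874 and 803 normalized counts in DKO libraries and 925, 799 and 892 in WT libraries after RA. In serum/LIF, Foxj2 had 608, 601 and 670.3 normalized counts in DKO libraries and 701, 724 and 745 in WT libraries. It rose with RA 1.36-fold in DKO (log2 fold change 0.44 ± 0.08, adjusted p = 1.32e-05) and 1.21-fold in WT cells (log2 fold change 0.27 ± 0.08, adjusted p = 0.00275). Its lower level in DKO in serum/LIF was called (log2 fold change −0.21 ± 0.08, adjusted p = 0.0373), but not without DKO replicate 1 (0.110) or 2 (0.114), WT replicate 2 (0.0796) or 3 (0.108), or with only the 6 serum/LIF libraries (0.0548). Foxj3, which lies 1517 kb from the Rlf locus on chromosome 4, had 2109, 2089 and 2102 normalized counts in DKO libraries and 2228, 2188 and 2207 in WT libraries after RA. In serum/LIF, Foxj3 had 1908, 1908 and 1819 normalized counts in DKO libraries and 1947, 1822 and 1752 in WT libraries. It passed for RA and not for genotype (log2 fold change 0.16 ± 0.05, adjusted p = 0.00560 in DKO and 0.26 ± 0.05, adjusted p = 4.16e-05 in WT).

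The FoxK genes, repressors of autophagy and regulators of glucose use, were expressed at a high level throughout. Foxk1 had 1829, 1986 and 2032 normalized counts in DKO libraries and 1535, 1544 and 1707 in WT libraries after RA. In serum/LIF, Foxk1 had 1648, 1452 and 1591 normalized counts in DKO libraries and 1351, 1341 and 1352 in WT libraries. DKO libraries lay above WT libraries in both conditions, by 1.22-fold after RA (log2 fold change 0.29 ± 0.06, adjusted p = 4.66e-04) and 1.16-fold in serum/LIF (log2 fold change 0.21 ± 0.06, adjusted p = 0.00920), the second call lost without DKO replicate 1 in serum/LIF (0.0624). Foxk2 had 5605, 5695 and 5742 normalized counts in DKO libraries and 6049.8, 6073 and 6646 in WT libraries after RA. In serum/LIF, Foxk2 had 4545, 4379 and 4271 normalized counts in DKO libraries and 4629, 4829 and 4566 in WT libraries. It was slightly lower in DKO after RA (log2 fold change −0.14 ± 0.04, adjusted p = 0.0117), a call lost without WT replicate 3 after RA (0.0864). RA raised Foxk1 (log2 fold change 0.32 ± 0.06, adjusted p = 4.86e-05 in DKO and 0.24 ± 0.06, adjusted p = 9.28e-04 in WT) and Foxk2 (log2 fold change 0.37 ± 0.04, adjusted p = 3.04e-08 in DKO and 0.42 ± 0.04, adjusted p = 3.01e-09 in WT).

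Foxm1, the activator of genes for G2 and mitosis, rose with RA while many of its targets fell. Foxm1 had 5529, 5603 and 5569 normalized counts in DKO libraries and 5129, 4998 and 5226 in WT libraries after RA. In serum/LIF, Foxm1 had 3037, 2808 and 2992 normalized counts in DKO libraries and 2701, 2767 and 2846 in WT libraries. It rose 1.89-fold in DKO (log2 fold change 0.92 ± 0.04, adjusted p = 7.73e-16) and 1.85-fold in WT cells (log2 fold change 0.89 ± 0.04, adjusted p = 1.26e-15). Of 16 listed FoxM1 targets, 3 rose and 10 fell with RA in DKO cells, and 2 rose and 12 fell in WT cells, with median log2 fold changes of −0.26 and −0.29. Of all genes, 40.2% rose and 38.2% fell in DKO cells, and 41.4% and 39.2% in WT cells. Ccnb1 (cyclin B1) fell 1.62-fold in DKO and 1.76-fold in WT cells, and Bub1, of the spindle checkpoint, fell 1.54-fold in DKO and 1.80-fold in WT cells. Between genotypes 4 targets were higher and 3 lower in DKO after RA, against 22.0% and 20.7% of all genes. In serum/LIF 5 targets were lower and 11 did not pass, against 15.4% of all genes lower. Foxm1 was called higher in DKO after RA (log2 fold change 0.12 ± 0.04, adjusted p = 0.0230), but not without DKO replicate 2 (0.0689) or 3 (0.0597) or WT replicate 1 (0.0536) or 2 (0.0781) after RA. From start to end, its annotated span shares 377 bases with that of Tex52 on the same strand. Whether exons overlap there, so that reads could count for either gene, was not checked.

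Among the FoxN genes, Foxn2 and Foxn4 fell with RA. Foxn2 had 1281, 1337 and 1357 normalized counts in DKO libraries and 1249, 1119 and 1269 in WT libraries after RA. In serum/LIF, Foxn2 had 3094, 3484 and 3205 normalized counts in DKO libraries and 3299, 3226 and 3251 in WT libraries. It fell 2.46-fold in DKO (log2 fold change −1.30 ± 0.06, adjusted p = 2.61e-16) and 2.69-fold in WT cells (log2 fold change −1.43 ± 0.06, adjusted p = 2.86e-17). After RA the DKO libraries lay above the WT libraries without passing (log2 fold change 0.13 ± 0.06, adjusted p = 0.0671), and passed without WT replicate 3 (0.0342). Foxn4, a factor of retinal and spinal cord progenitors, had 19.0, 47.8 and 40.3 normalized counts in DKO libraries and 57.6, 48.2 and 49.3 in WT libraries after RA. In serum/LIF, Foxn4 had 259, 292 and 315 normalized counts in DKO libraries and 258, 315 and 249.7 in WT libraries. It fell 8.10-fold in DKO (log2 fold change −3.08 ± 0.24, adjusted p = 2.42e-11) and 5.30-fold in WT cells (log2 fold change −2.38 ± 0.24, adjusted p = 2.45e-09). The lower level in DKO after RA was called by limma (log2 fold change −0.62 ± 0.24, adjusted p = 0.0412) and not by edgeR (0.0774) or DESeq2 (0.0559), nor with only the 6 RA libraries (0.116). It was also lost without any 1 of DKO replicates 1 and 2 in serum/LIF, and DKO replicate 1 and WT replicates 1, 2 and 3 after RA (adjusted p = 0.0500 to 0.372).

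Foxn3, a repressor in the DNA damage checkpoint, was called in opposite directions with RA. Foxn3 had 774, 757 and 781 normalized counts in DKO libraries and 485, 392 and 598 in WT libraries after RA. In serum/LIF, Foxn3 had 665, 629 and 643 normalized counts in DKO libraries and 668, 559.8 and 556 in WT libraries. After RA the 3 DKO libraries lay above the WT libraries, of which WT replicate 2 was the lowest. Foxn3 was 1.57-fold higher in DKO after RA (log2 fold change 0.67 ± 0.11, adjusted p = 2.87e-05), and the genotype effect differed from that in serum/LIF (difference of log2 fold changes 0.54 ± 0.15, adjusted p = 0.00953). The call for this difference was lost with limma without trend and robust settings (0.0613). The rise with RA in DKO cells (log2 fold change 0.25 ± 0.11, adjusted p = 0.0380) was lost without any 1 of the 6 DKO libraries (adjusted p = 0.0522 to 0.0977). The fall with RA in WT cells (log2 fold change −0.29 ± 0.11, adjusted p = 0.0191) was lost without WT replicate 2 after RA (0.209), without WT replicate 1 in serum/LIF (0.119) and with only the WT libraries (0.0567).

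The FoxO genes, which AKT inactivates downstream of insulin and growth factors, were higher in DKO cells, except Foxo6 and, in serum/LIF, Foxo4. Foxo1 had 1229.7, 1095 and 1162 normalized counts in DKO libraries and 870.05, 801 and 932 in WT libraries after RA. In serum/LIF, Foxo1 had 1581, 1771 and 1761 normalized counts in DKO libraries and 1514, 1203 and 1289.6 in WT libraries. DKO libraries lay above WT libraries in both conditions, 1.34-fold after RA (log2 fold change 0.42 ± 0.08, adjusted p = 1.16e-04) and 1.28-fold in serum/LIF (log2 fold change 0.36 ± 0.08, adjusted p = 1.00e-03). Foxo3 had 3790.4, 3926 and 3887 normalized counts in DKO libraries and 2707, 2403 and 2746 in WT libraries after RA. In serum/LIF, Foxo3 had 2165, 2030.4 and 2038 normalized counts in DKO libraries and 1604, 1761 and 1655 in WT libraries. Here too no DKO library overlapped a WT library within a condition, and Foxo3 was 1.48-fold higher in DKO after RA (log2 fold change 0.56 ± 0.05, adjusted p = 8.82e-09) and 1.24-fold in serum/LIF (log2 fold change 0.31 ± 0.05, adjusted p = 7.47e-05), with a larger effect after RA (difference of log2 fold changes 0.25 ± 0.08, adjusted p = 0.0143). The call for this difference was lost with limma without trend and robust settings (0.0531). Foxo4 had 2541, 2604 and 2682 normalized counts in DKO libraries and 2036, 2067 and 1992 in WT libraries after RA. In serum/LIF, Foxo4 had 1922, 1745 and 1819 normalized counts in DKO libraries and 1676, 1689 and 1756 in WT libraries. The genotypes separated after RA (log2 fold change 0.36 ± 0.05, adjusted p = 3.07e-06) and overlapped in serum/LIF (log2 fold change 0.10 ± 0.05, adjusted p = 0.141), and this difference was called (difference of log2 fold changes 0.26 ± 0.07, adjusted p = 0.00681). RA lowered Foxo1 (log2 fold change −0.55 ± 0.08, adjusted p = 7.91e-07 in DKO and −0.62 ± 0.08, adjusted p = 1.21e-07 in WT). It raised Foxo3 1.86-fold in DKO (log2 fold change 0.90 ± 0.05, adjusted p = 1.67e-13) and 1.56-fold in WT cells (log2 fold change 0.64 ± 0.05, adjusted p = 8.46e-11), and Foxo4 in both genotypes (log2 fold change 0.51 ± 0.05, adjusted p = 1.69e-09 in DKO and 0.25 ± 0.05, adjusted p = 8.10e-05 in WT).

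Few of the listed FoxO targets were higher in DKO cells after RA. Of 18 tested, 2 were higher and 8 lower in DKO after RA, with a median log2 fold change of −0.10, and 5 were higher and 5 lower in serum/LIF, with a median of 0.03. The shares of all genes were 22.0% higher and 20.7% lower after RA, and 17.8% and 15.4% in serum/LIF. Txnip, an inhibitor of thioredoxin and glucose uptake, had 532 ± 34.5 in DKO and 1767 ± 53.6 in WT cells after RA (log2 fold change −1.73 ± 0.07, adjusted p = 2.95e-15). Pik3ip1, an inhibitor of PI3K, was 2.11-fold lower (log2 fold change −1.08 ± 0.12, adjusted p = 1.71e-07) and Ccnd2 (cyclin D2) 1.63-fold lower (log2 fold change −0.71 ± 0.07, adjusted p = 6.38e-09). In serum/LIF the insulin receptor substrate gene Irs2 was 2.52-fold higher in DKO (log2 fold change 1.33 ± 0.06, adjusted p = 8.75e-15). Among 14 regulators of FoxO in the PI3K and AKT pathway, 7 were higher and 2 lower in DKO after RA, and 5 higher and 4 lower in serum/LIF, with median log2 fold changes of 0.14 and 0.03. The same shares of all genes apply to them. After RA, Sgk1, a kinase that phosphorylates FoxO proteins, was 1.75-fold higher in DKO than in WT cells (log2 fold change 0.80 ± 0.06, adjusted p = 1.41e-10), and Igf1r 1.40-fold (log2 fold change 0.49 ± 0.06, adjusted p = 8.69e-07). Sgk1 itself fell with RA, 23.2-fold in DKO and 51.4-fold in WT cells.

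The FoxP genes, repressors with roles in lung, neurons and T cells, included the member most abundant per kilobase after RA. Foxp4 had 8338, 8793 and 8197 normalized counts in DKO libraries and 7324, 7459 and 7774 in WT libraries after RA. In serum/LIF, Foxp4 had 1628, 1621 and 1853 normalized counts in DKO libraries and 1194, 1042 and 1116 in WT libraries. All RA libraries lay above all serum/LIF libraries, a rise of 4.96-fold in DKO (log2 fold change 2.31 ± 0.06, adjusted p = 2.44e-21) and 6.73-fold in WT cells (log2 fold change 2.75 ± 0.06, adjusted p = 4.89e-23). Foxp4 was 1.52-fold higher in DKO in serum/LIF (log2 fold change 0.61 ± 0.06, adjusted p = 5.30e-09), with a smaller effect after RA (difference of log2 fold changes −0.44 ± 0.08, adjusted p = 1.33e-04). After RA the call for DKO (log2 fold change 0.17 ± 0.06, adjusted p = 0.0175) was lost without DKO replicate 2 (0.0958) or WT replicate 1 (0.0749). Foxp1 (chr6:98925342-99435345) had 6228, 6365 and 6275 normalized counts in DKO libraries and 4246, 3847 and 4334 in WT libraries after RA. In serum/LIF, Foxp1 had 3581, 3412 and 3277 normalized counts in DKO libraries and 3911, 3773 and 3679.8 in WT libraries. The DKO libraries after RA lay above all other libraries. Foxp1 was 1.52-fold higher in DKO after RA (log2 fold change 0.60 ± 0.05, adjusted p = 2.46e-10), and the genotype effect differed from that in serum/LIF (difference of log2 fold changes 0.75 ± 0.07, adjusted p = 5.78e-09). In serum/LIF it was called lower in DKO (log2 fold change −0.15 ± 0.05, adjusted p = 0.0186), but not without DKO replicate 3 (0.0886) or WT replicate 1 (0.0809). It rose 1.84-fold with RA in DKO cells (log2 fold change 0.88 ± 0.05, adjusted p = 1.59e-14). The small rise in WT cells (log2 fold change 0.13 ± 0.05, adjusted p = 0.0163) was lost without WT replicate 3 in serum/LIF (0.0672) or WT replicate 1 (0.0701) or 3 (0.0889) after RA. Foxp2, known for its role in speech and motor circuits, had 368, 354 and 348 normalized counts in DKO libraries and 395, 384 and 379 in WT libraries after RA. In serum/LIF, Foxp2 had 2.29, 16.4 and 9.01 normalized counts in DKO libraries and 1.91, 4.30 and 3.74 in WT libraries. It was near silent in serum/LIF and rose with RA in both genotypes (log2 fold change 5.43 ± 0.41, adjusted p = 3.54e-11 in DKO and 6.53 ± 0.41, adjusted p = 1.08e-12 in WT). After RA the DKO libraries lay below the WT libraries without passing (log2 fold change −0.11 ± 0.41, adjusted p = 0.847).

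**Figure D5:**
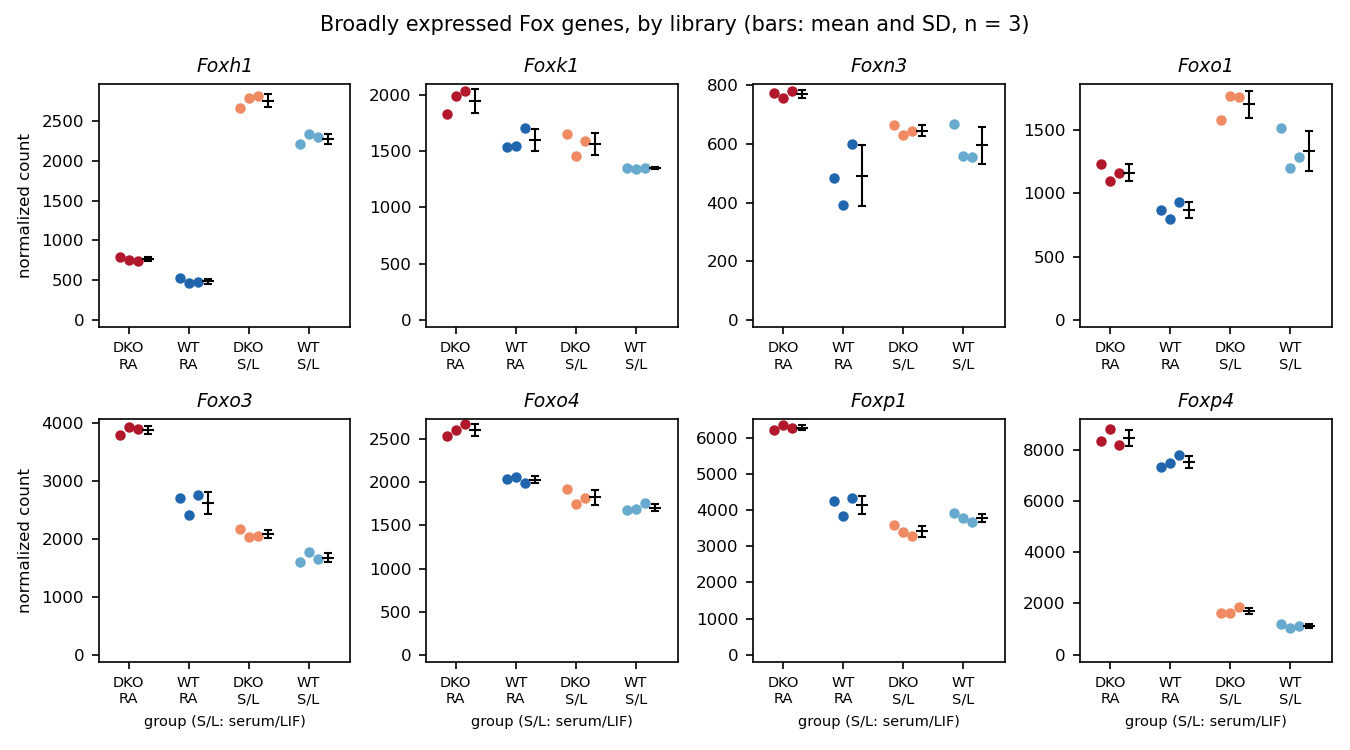
Normalized counts of 8 Fox genes in each library (points) with the group mean and SD (black, n = 3), for DKO and WT cells after RA and in serum/LIF (S/L), each on its own linear axis. After RA the DKO libraries of Foxo1, Foxo3, Foxo4 and Foxp1 lie above the WT libraries, while in serum/LIF the order for Foxp1 is opposite and Foxh1 is at its highest.

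Foxr1 and Foxr2, of a small subfamily of which Foxr2 acts as an oncogene in some brain tumours, were ES cell genes that RA reduced. Foxr1 had 16.1, 21.1 and 20.6 normalized counts in DKO libraries and 36.9, 17.1 and 34.1 in WT libraries after RA. In serum/LIF, Foxr1 had 127, 133 and 128 normalized counts in DKO libraries and 106, 91.3 and 110.3 in WT libraries. All RA libraries lay below all serum/LIF libraries. Foxr1 fell 6.72-fold in DKO (log2 fold change −2.69 ± 0.28, adjusted p = 4.23e-09) and 3.49-fold in WT cells (log2 fold change −1.84 ± 0.28, adjusted p = 1.94e-06). Foxr2 had 9.48, 14.7 and 8.95 normalized counts in DKO libraries and 9.01, 6.02 and 10.8 in WT libraries after RA. In serum/LIF, Foxr2 had 219, 209 and 182 normalized counts in DKO libraries and 190.03, 161 and 164 in WT libraries. Foxr2 showed the same separation and fell 18.4-fold in DKO (log2 fold change −4.11 ± 0.29, adjusted p = 2.73e-12) and 20.0-fold in WT cells (log2 fold change −4.20 ± 0.29, adjusted p = 1.56e-12). Neither passed between genotypes in either condition with all 12 libraries. For Foxr1 after RA the log2 fold change of DKO over WT was −0.52 ± 0.28 (adjusted p = 0.141). WT replicate 2 after RA had the lowest Foxr1 level of the WT libraries. Without it Foxr1 was called lower in DKO after RA (log2 fold change −0.86, adjusted p = 0.0114), and its genotype effect was called different between conditions (difference of log2 fold changes −1.19, adjusted p = 0.0119).

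In all, 10 members stayed under a mean of 100 normalized counts in every group, and 8 of them were tested, among them Foxb1 and Foxl1. Foxe3, a lens gene 15.5 kb from Foxd2, had 22.8, 29.4 and 23.3 normalized counts in DKO libraries and 64.8, 64.2 and 64.6 in WT libraries after RA. The groups did not overlap, and the fit over 12 libraries did not call the difference (log2 fold change −1.34 ± 0.62, adjusted p = 0.0893), while it was called with only the 6 RA libraries (adjusted p = 3.40e-04), by edgeR (0.00641), by DESeq2 (0.00135) and with a pseudocount of 5 (0.00343). Foxe3 had 2 reads in all DKO and 4 in all WT serum/LIF libraries and rose with RA (log2 fold change 4.13 ± 0.62, adjusted p = 2.02e-06 in DKO and 5.01 ± 0.62, adjusted p = 8.94e-08 in WT). Foxf2 averaged 10.7 ± 2.45 in DKO and 1.34 ± 1.17 in WT cells in serum/LIF (log2 fold change 2.47 ± 0.83, adjusted p = 0.0235). That call was lost without DKO replicate 3 (0.0713) or WT replicate 1 (0.0985). The rise of Foxf2 with RA in WT cells (log2 fold change 2.07 ± 0.83, adjusted p = 0.0253) was lost without WT replicate 2 after RA (0.212), without WT replicate 1 in serum/LIF (0.111) and with only the WT libraries (0.0560). Foxo6, a FoxO gene of the brain, lies 858.6 kb from the Rlf locus on chromosome 4 and averaged 93.4 ± 11.1 in DKO cells after RA and 51.1 ± 21.4 in DKO cells in serum/LIF. It rose with RA in DKO cells (log2 fold change 0.93 ± 0.29, adjusted p = 0.00544), a call lost without DKO replicate 1 in serum/LIF (0.0528), and did not pass in WT cells (log2 fold change 0.03 ± 0.29, adjusted p = 0.934). Foxn1, the thymus regulator, averaged 7.45 ± 5.13 in DKO and 17.1 ± 2.37 in WT cells after RA. It rose with RA in WT cells (log2 fold change 2.36 ± 0.73, adjusted p = 0.00520) and did not pass in DKO cells (log2 fold change 1.52 ± 0.73, adjusted p = 0.0623). Foxe1, of the thyroid, and Foxp3, of regulatory T cells, passed in no comparison, with group means of 17.1 to 24.9 and 21.1 to 33.4. The annotated span of Foxp3, from start to end, overlaps that of Flicr by 1341 bases on the same strand. It overlaps the span of Ccdc22 by 1435 bases on the opposite strand. Whether exons overlap was not checked, and whether the counting used strand is not given in the sources used here. Foxd4 and Foxs1, below the filter, had group means of at most 10.7 and 4.91.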

How the data were processed

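RNA was measured in 12 libraries of TT2 cells, 3 for each genotype and condition, grouped by title. Trimming with Trim Galore 0.6.10, and STAR 2.7.11b, Subread 2.0.6 with featureCounts, DESeq2 1.44.0 and the build mm10, are named in the submitters' processing notes. How strand and reads of several positions were counted is not given in the sources used. The deposited gene table holds a signal for each library, which per its values is whole reads divided by a size factor (100% of values within 0.01 of a whole read). Per the file headers, it also holds the authors' log2 fold changes, a Wald score and p-values, and the counts credited to that table rest on its adjusted p-values and signs; its fold changes run second group over first, checked against the group means.

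Values were taken as log2(value + 1). The filter kept 15750 of 17901 genes, which reached 10 in 3 or more libraries. They were fitted with limma 3.58.1 in R 4.3.3 (trend and robust, 1 mean per group over 12 libraries, no block), with Benjamini-Hochberg adjustment over all tested genes. The 5 contrasts were the genotype in each condition, RA in each genotype, and the interaction. Alternatives were other pseudocounts, filters and scalings, the 12 libraries left out in turn, only the groups compared, a replicate block, and edgeR 4.0.16 and DESeq2 1.42.0 on the recovered reads. Numbers of replicates did not pair the libraries over all tested genes.

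Members with a mean of 100 or more in some group and a call in some contrast are given by library, and of the companion lists at most 3 called genes per list and contrast are named. A single member that enters the counts is not reported here by name and is left out of the figures. The members and the 12 lists were chosen with earlier results of these data known. A fold against a group with 0 reads used 3 reads over the group, and such floors cover counting error only. Promoter sequences and gene models came from RefSeq and GENCODE on GRCm38. A length is that of the longest GENCODE transcript linked to the listed RefSeq transcript. For some members, such as Foxc1, Foxd1, Foxl2 and Foxq1, this length exceeds the listed span of the gene.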

Additional observations from a re-analysis of the deposited data

Results flagged for a closer look

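The genotype effect after RA differed from that in serum/LIF, by the interaction term of the limma fit over 12 libraries, for the Fox genes below. Of all tested genes 30.8% did so. The values are differences of log2 fold changes, the effect of DKO over WT after RA minus that in serum/LIF. They were positive for Foxa3 (1.02 ± 0.36), Foxh1 (0.37 ± 0.09), Foxn3 (0.54 ± 0.15), Foxo3 (0.25 ± 0.08), Foxo4 (0.26 ± 0.07) and Foxp1 (0.75 ± 0.07). Those of Foxa3, Foxn3 and Foxo3 were not called with limma without trend and robust settings. The other values follow. The difference was negative for Foxb1 (−4.71 ± 0.87), Foxc1 (−1.11 ± 0.25), Foxd3 (−1.87 ± 0.38) and Foxp4 (−0.44 ± 0.08). For Foxp1 the 2 genotype effects had opposite signs, 0.60 ± 0.05 after RA and −0.15 ± 0.05 in serum/LIF, and each passed on its own. With 3 libraries in a group, no outlier test was made on the values of single genes.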

How the results depend on the processing

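Over 22 alternatives, 2362 of the values of called members kept their call and direction and 75 lost the call, while 26 values of members whose groups did not overlap gained one and 302 stayed uncalled. No direction reversed among these values. The 75 lost calls fell on 19 of 111 pairs of member and comparison, 55 of them by leaving out 1 library. limma without trend and robust settings ended 12. Between genotypes these were Foxa2, Foxn4 and Foxp4 after RA and Foxf2 and Foxp1 in serum/LIF. With RA they were Foxf2, Foxn3 and Foxp1 in WT and Foxn3 in DKO cells. For the interaction they were Foxa3, Foxn3 and Foxo3. Counts of members higher in DKO ranged from 10 to 16 after RA and from 10 to 13 in serum/LIF. Members lower in DKO in serum/LIF numbered 1 with only the groups compared and 1 to 3 on leaving out a library, against 3. Members lower in DKO after RA numbered 2 to 5 on leaving out a library, against 4. For the interaction, 3 members were higher with limma without trend and robust settings, against 6, and 9 were lower with DESeq2, against 5. Over all tested genes, same-numbered replicates did not deviate together (correlations of −0.03 to 0.05 over 18 pairs). Single members could differ from this: in serum/LIF, Foxc2 and Foxd1 were lowest in replicate 2 and highest in replicate 3 of both genotypes. With the replicate block, 12 members were higher and 3 lower in serum/LIF, 13 higher and 5 lower after RA, and 6 and 5 in the interaction. With RA, the block left 25 higher and 11 lower in WT and 24 and 9 in DKO cells. Scaling by edgeR's TMM, DESeq2 or the upper quartile moved the median of all genes by under 0.1. Members with few reads in serum/LIF, such as Foxc2 and Foxd1, had wide errors in the 12-library fit, and few reads limit what can be said of their serum/LIF levels. After RA they had more reads, 2826 in DKO and 5038 in WT cells for Foxc2, and 260 and 1014 for Foxd1. With only the RA libraries, the SE of the genotype effect was 0.06 for Foxc2 and 0.18 for Foxd1. On the recovered reads, edgeR called 3566 of all genes higher and 3533 lower in DKO after RA, and 2810 higher and 2501 lower in serum/LIF. limma called 3468 and 3259 after RA, and 2801 and 2429 in serum/LIF.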
